A study of Homo sapiens with 6 samples.

Results

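The genes described here are those that carry, receive or block a Wnt signal at the cell surface, with the nuclear factors and feedback inhibitors that respond to it. They were taken by name: every row of the table for a WNT, FZD, SFRP1 to SFRP5, DKK1 to DKK4 or RSPO1 to RSPO4 gene, plus WIF1, FRZB, LRP5, LRP6, ROR1, ROR2, AXIN2, LEF1, TCF7, TCF7L1, TCF7L2, LGR4, LGR5, NKD1, ZNRF3 and RNF43. This gave 57 genes of 28092 rows, of which 48 passed the filter on low counts and were tested. The human embryonic stem cell line H9 was turned into cardiomyocytes, and RNA was sequenced from 3 wild-type samples and from 3 samples with the gene ADPRHL1 knocked out, all taken no later than 3 days after the cells were seeded again. The product of ADPRHL1 is a heart-enriched relative of ADP-ribosylhydrolases regarded as a pseudoenzyme, and the study asked how its loss affects focal adhesions. The labels give neither the way the knockout was made nor the number of clones behind it, nor whether replicates came from separate cultures, so p-values measure only how far these samples spread, which may be technical spread.

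Wnt proteins are secreted lipid-modified ligands that bind Frizzled receptors together with a co-receptor. With LRP5 or LRP6 they protect beta-catenin from degradation, so that it can enter the nucleus and act with TCF and LEF factors, whereas ligands such as WNT5A and WNT11 mostly act through ROR receptors and planar polarity proteins without beta-catenin. R-spondins bind LGR receptors and remove the membrane ubiquitin ligases RNF43 and ZNRF3, which would otherwise take Frizzled receptors off the surface. In the making of heart cells from stem cells, beta-catenin signalling is needed to form mesoderm and has to be lowered again before cardiac progenitors appear.

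Levels within a gene are given as TMM-scaled CPM, estimated counts relative to the scaled library total, and levels between genes as FPKM, which also divides by transcript length. Changes are log2 fold changes, knockout minus wild type, with their standard error (SE), from the quasi-likelihood test of edgeR, adjusted by Benjamini-Hochberg over 19558 genes, and a gene passed at an adjusted p under 0.05. Errors on means are SD with n = 3 per group. Depth was close to equal, from 21179650 to 21405718 counts per sample, and ADPRHL1 itself averaged 80.9 ± 2.41 CPM in wild-type cells and 6.59 ± 0.893 CPM in knockout cells. The cardiac troponin T gene TNNT2 averaged 1463 ± 70.3 CPM in wild-type cells and 467 ± 20.3 CPM in knockout cells.

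Wnt genes moved in both directions, with RSPO2, RSPO3, the R-spondin receptor genes LGR4 and LGR5 and the feedback gene AXIN2 lower in knockout and the Frizzled gene FZD9, the co-receptor gene LRP5, the antagonist genes FRZB and SFRP5 and the factor gene TCF7 higher. Of the 48 tested, 13 rose, 18 fell and 17 did not pass. That is 64.6% called, where 57.0% of all genes tested were called, so the count is near the background. The rises made up 27.1% against 28.4% of all genes, and the falls 37.5% against 28.6%. By 2-fold or more, 6 rose, where 10.1% of all genes did, and 3 fell, where 6.02% did. The median change of the 48 was -0.17, beside 0.0011 over all genes tested. Groups did not overlap for 34 of the 48, or 70.8%, against 64.4% of all genes, with 14 above wild type (31.9% of all genes) and 20 below it (32.5%).

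**Figure D1:**
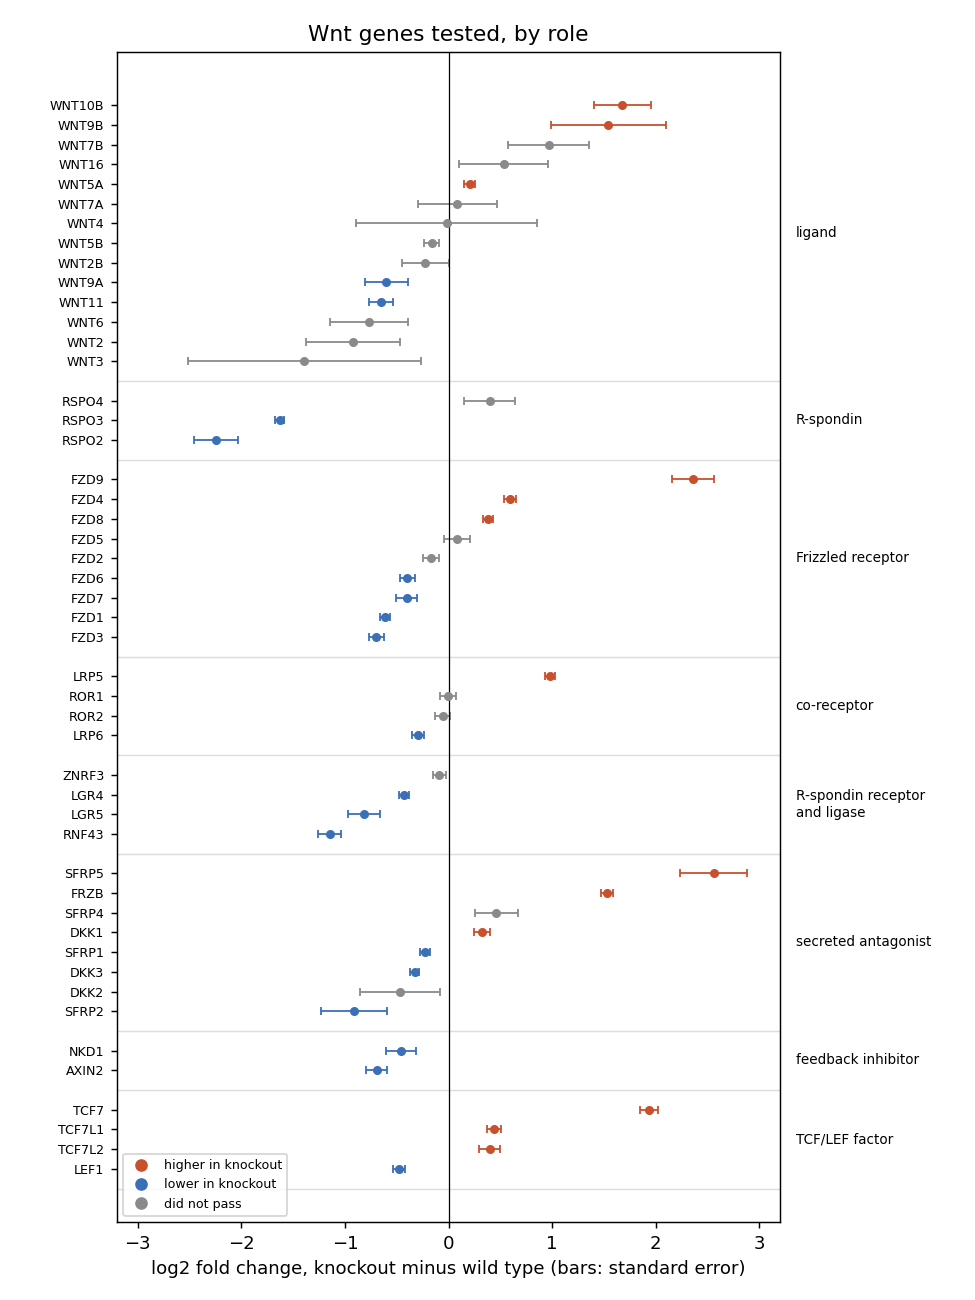
Log2 fold change, knockout minus wild type, of the 48 tested Wnt genes, grouped by role and ordered within it; points are edgeR estimates, bars their standard errors, and colour gives the call. Falls fill the panel of R-spondin receptors and ligases apart from ZNRF3 (grey), while SFRP5 (2.56), FZD9 (2.36) and TCF7 (1.94) lie farthest to the right.

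In the same samples markers of several cell types differed, and their part in the Wnt gene changes was not tested. The counts below stand beside 28.4% of all genes tested that rose and 28.6% that fell. Epicardial (69.2% called), epithelial (66.7%) and pluripotent and primitive streak markers (50%) were closer to the 57.0% called of all genes than cardiomyocyte markers (88.9%). The remaining lists ran from 85.7 to 100% called. Of 18 cardiomyocyte markers 16 fell and 0 rose, and their summed level went from 19897 to 20100.0 CPM in wild type to 5573 to 6002 CPM in knockout. Of 17 fibroblast and mesenchymal markers 14 rose and 3 fell (12056 to 12359 CPM against 16285 to 19265 CPM). Endothelial markers rose in 11 of 13 tested and fell in 1 (222 to 228 CPM against 375 to 412 CPM), with CLDN5 too low to test. Endoderm and hepatic markers rose in 10 of 14 and fell in 2 (1001 to 1139.6 CPM against 1345 to 1937 CPM). Smooth muscle and pericyte markers rose in 4 of 12 and fell in 8 (3691 to 3803 CPM against 2691 to 2919.9 CPM), epicardial markers rose in 6 of 13 and fell in 3 (317 to 330.1 CPM against 329 to 376 CPM), and epithelial markers rose in 2 of 12 and fell in 6 (5209 to 5453 CPM against 4594 to 5108 CPM). Neural and neural crest markers rose in 2 of 7 tested and fell in 4 (687 to 699.6 CPM against 632 to 638 CPM), with FOXD3 at 0 in every sample and SOX1, SOX2 and SOX10 too low to test. Pluripotent and primitive streak markers fell in 3 of 6 tested and rose in 0 (16.4 to 18.2 CPM against 7.89 to 9.25 CPM), with NANOG, LIN28A, TBXT, EOMES and MESP1 too low to test. In bulk RNA of this kind, fewer cells of a type and less RNA per cell cannot be told apart.

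Among the ligands, 3 genes were the highest by FPKM in every sample: WNT5B, WNT11 and WNT5A, all best known for signalling without beta-catenin. The next gene lay far below them, except in wild-type replicate 2, where WNT8B was listed at 6.36 FPKM beside 8.21 FPKM for WNT5A. Together they held 75.7 to 89.1% of the summed FPKM of the 19 WNT genes in wild type, the lowest share being that of wild-type replicate 2, and 85.1 to 90.0% in knockout. WNT5B stood at 12.2, 13.0 and 12.5 FPKM in wild-type cells and at 10.9, 9.40 and 11.2 FPKM in knockout cells. WNT11 stood at 10.6, 13.9 and 10.7 FPKM in wild-type cells and at 9.16, 7.56 and 7.66 FPKM in knockout cells, so the ranges of WNT5B and WNT11 overlapped in wild type. WNT5A was the third in wild type, at 8.39, 8.21 and 8.83 FPKM, and stood at 9.59, 10.2 and 10.2 FPKM in knockout, within the range of WNT5B there. Of the 19 WNT genes 14 had a mean under 1 FPKM in both groups, among them WNT3A, which is widely used as the standard activator of beta-catenin and did not exceed 0.05 FPKM in any sample.

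Of these leading ligands WNT11 fell, WNT5A rose and WNT5B did not pass. WNT11 fell (log2 fold change -0.65, SE 0.117, adjusted p = 9.80e-04), at 26.4, 34.0 and 26.5 CPM in wild-type cells and 20.9, 16.9 and 17.7 CPM in knockout cells, with every knockout sample below every wild-type sample. WNT5A rose by 0.20 (SE 0.0511, adjusted p = 0.00445), from 55.1 ± 1.80 CPM to 63.5 ± 1.47 CPM. WNT5B averaged 40.4 ± 1.52 CPM in wild-type cells and 36.1 ± 3.24 CPM in knockout cells, and its estimate of -0.16 missed the threshold (adjusted p = 0.0661). It passed without knockout replicate 3 (-0.23, adjusted p = 0.0201), with no low-count filter (adjusted p = 0.0379) and on log2(FPKM + 1) (-0.24, adjusted p = 0.0176).

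Rare ligand genes gave the larger folds. WNT10B stood at 0.662, 0.942 and 0.850 CPM in wild-type cells and at 2.48, 2.26 and 3.15 CPM in knockout cells, and all knockout samples lay above all wild-type samples. It rose by 1.68 (SE 0.274, adjusted p = 2.15e-04). WNT9B, at 0.220 ± 0.152 CPM in wild-type cells and 0.653 ± 0.129 CPM in knockout cells, rose by 1.54 (SE 0.556, adjusted p = 0.0312), but it rested on at most 15.6 counts in a sample and the call ended without wild-type replicate 2 (1.07, adjusted p = 0.120), without wild-type replicate 3 or knockout replicate 1 or 3, with no low-count filter and in DESeq2 (adjusted p = 0.102). WNT9A fell by 0.60 on the log2 scale (SE 0.209, adjusted p = 0.0270), from 4.78 ± 0.262 CPM to 3.16 ± 0.975 CPM, a call that ended in DESeq2 (adjusted p = 0.0623) and without any of wild-type replicates 2 and 3 and knockout replicates 1 and 2. WNT7B stood at 0.709, 1.32 and 1.04 CPM in wild-type cells and at 0.981, 2.17 and 2.87 CPM in knockout cells and missed the threshold (0.97, adjusted p = 0.0525). It passed with the replicate number as a block (0.91, adjusted p = 0.0326), without knockout replicate 1 (1.29, adjusted p = 0.00651) and under 5 other settings.

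The other tested ligand genes, WNT2, WNT2B, WNT3, WNT4, WNT6, WNT7A and WNT16, did not pass. WNT2 (-0.92, adjusted p = 0.102) passed without knockout replicate 3 (-1.43, adjusted p = 0.0397), and WNT6 (-0.77, adjusted p = 0.101) passed without knockout replicate 2 (-1.13, adjusted p = 0.0409). WNT3 was uneven among knockout samples, at 0, 1.98 and 0.517 CPM, against 1.75, 3.49 and 1.37 CPM in wild type. Its estimate of -1.39 (adjusted p = 0.350) became -3.07 without knockout replicate 2, where it passed. WNT4 also stood at 0 CPM in knockout replicate 1, and at 0.692 and 0.799 CPM in the other knockout samples. WNT1, WNT3A, WNT8A, WNT8B and WNT10A were too low to test. With WNT8B the exception, none of these 5 exceeded 9 estimated counts in a sample.

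WNT genes lie in pairs at several places in the genome, and both members of each pair are given here side by side. WNT10B and WNT1 are 6586 bases apart on chromosome 12, where WNT10B rose and WNT1 had at most 2.89 counts in any sample. WNT9B and WNT3 are 14496 bases apart on chromosome 17, where WNT9B rose and WNT3 did not pass. WNT9A, which fell, lies 59065 bases from WNT3A on chromosome 1, which had at most 3 counts. The annotated spans of WNT6 and WNT10A on chromosome 2 overlap by 118 bases, and WNT6 did not pass while WNT10A was not tested. WNT6 stood at 0.45, 0.56 and 0.28 FPKM in wild-type cells and at 0.02, 0.11 and 0.02 FPKM in knockout cells, a wider gap than that of its counts, at 1.09 ± 0.124 and 0.636 ± 0.259 CPM, so count and FPKM did not move alike.

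**Figure D2:**
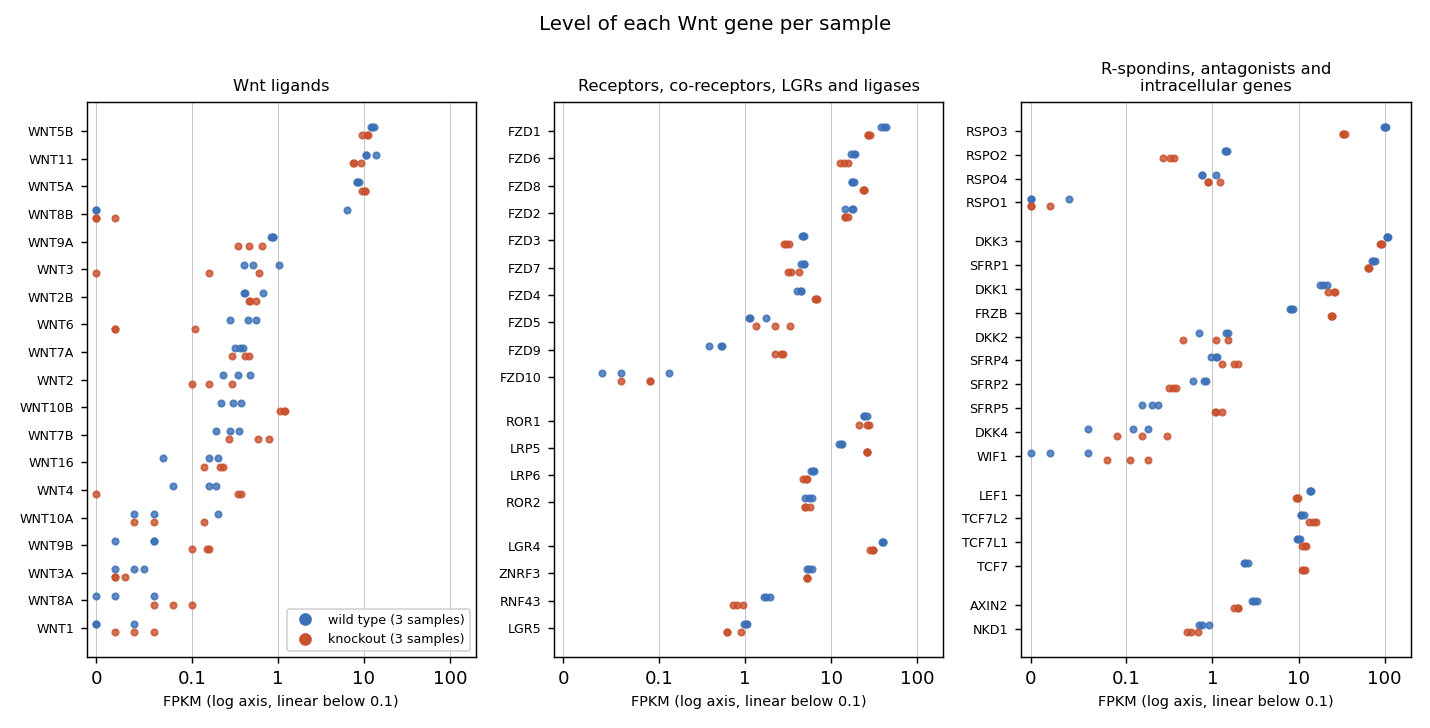
FPKM of all 57 Wnt genes in each of the 6 samples (1 point per sample; log axis, linear below 0.1), ordered within each role by the wild-type mean. WNT5B, WNT11 and WNT5A lie near 10 FPKM and nearly all other ligand values below 1 FPKM, apart from WNT8B in 1 wild-type sample, while RSPO3, DKK3 and SFRP1 are the highest of their roles in both groups.

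R-spondins raise the number of Frizzled receptors on the cell, and RSPO2 and RSPO3 had the largest falls among the Wnt genes that passed the test. RSPO3 was the most abundant of the 4 by far, with 97.5 to 97.9% of their summed FPKM in wild type and 95.8 to 96.7% in knockout. It stood at 252, 243 and 253 CPM in wild-type cells and at 81.9, 77.8 and 81.9 CPM in knockout cells. Both groups were tight and far apart, and RSPO3 (chromosome 6, 127118671 to 127199481) fell 3.10-fold, by 1.63 on the log2 scale (SE 0.0475, adjusted p = 4.86e-11). RSPO2 stood at 4.49, 4.57 and 4.25 CPM in wild-type cells and at 0.841, 1.11 and 0.846 CPM in knockout cells. It fell by 2.24 on the log2 scale (SE 0.211, adjusted p = 1.83e-06), again with no overlap, but from a level far below that of RSPO3, 1.44 ± 0.0473 against 101 ± 1.87 FPKM in wild type. RSPO4 averaged 1.82 ± 0.462 CPM in wild-type cells and 2.41 ± 0.315 CPM in knockout cells and did not pass (0.40, adjusted p = 0.184), and RSPO1 had at most 2 counts in a sample.

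Of the 4 genes for R-spondin receptors and the ligases that R-spondins remove, 3 fell as well, beside 28.6% of all genes. RNF43, a ligase that takes Frizzled receptors off the surface and is itself a common target of beta-catenin, stood at 12.1, 11.9 and 13.0 CPM in wild-type cells and at 5.84, 5.12 and 5.73 CPM in knockout cells. The groups lay apart, and it fell by 1.15 on the log2 scale (SE 0.111, adjusted p = 2.40e-06). LGR5, an R-spondin receptor and stem cell marker of the gut, fell by 0.82 (SE 0.158, adjusted p = 7.92e-04), from 4.49 to 5.05 CPM down to 2.68 to 2.85 CPM. LGR4, the broadly expressed receptor, held 97.4 to 97.7% of the FPKM of LGR4 and LGR5 in wild type and 97.2 to 98.1% in knockout. It stood at 222, 220.4 and 216 CPM in wild-type cells and at 169, 163 and 156 CPM in knockout cells, a smaller fall of 0.43 (SE 0.0472, adjusted p = 7.20e-06). ZNRF3, the partner ligase of RNF43, averaged 35.2 ± 2.01 CPM and 33.1 ± 0.497 CPM and did not pass (-0.09, adjusted p = 0.243). The difference between the changes of RNF43 and ZNRF3 was not tested.

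The 2 intracellular feedback genes fell too, beside 28.6% of all genes. AXIN2, a scaffold of the beta-catenin destruction complex and the most used readout of beta-catenin signalling, stood at 12.7, 12.2 and 13.5 CPM in wild-type cells and at 8.22, 8.12 and 7.42 CPM in knockout cells. It fell by 0.69 on the log2 scale (SE 0.101, adjusted p = 8.66e-05), and no knockout sample reached the lowest wild-type sample. AXIN2 shares 1316 exonic bases on the same strand with the protein-coding model AC004805.1 of GENCODE 29. NKD1, which binds Dishevelled and dampens signalling, fell by 0.46 (SE 0.145, adjusted p = 0.0179), at 10.3, 13.0 and 11.2 CPM in wild-type cells and 7.52, 7.29 and 10.3 CPM in knockout cells. Its groups touched, and the call ended without wild-type replicate 2 (adjusted p = 0.0748), knockout replicate 1 (0.0691) or knockout replicate 2 (0.0754).

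**Figure D3:**
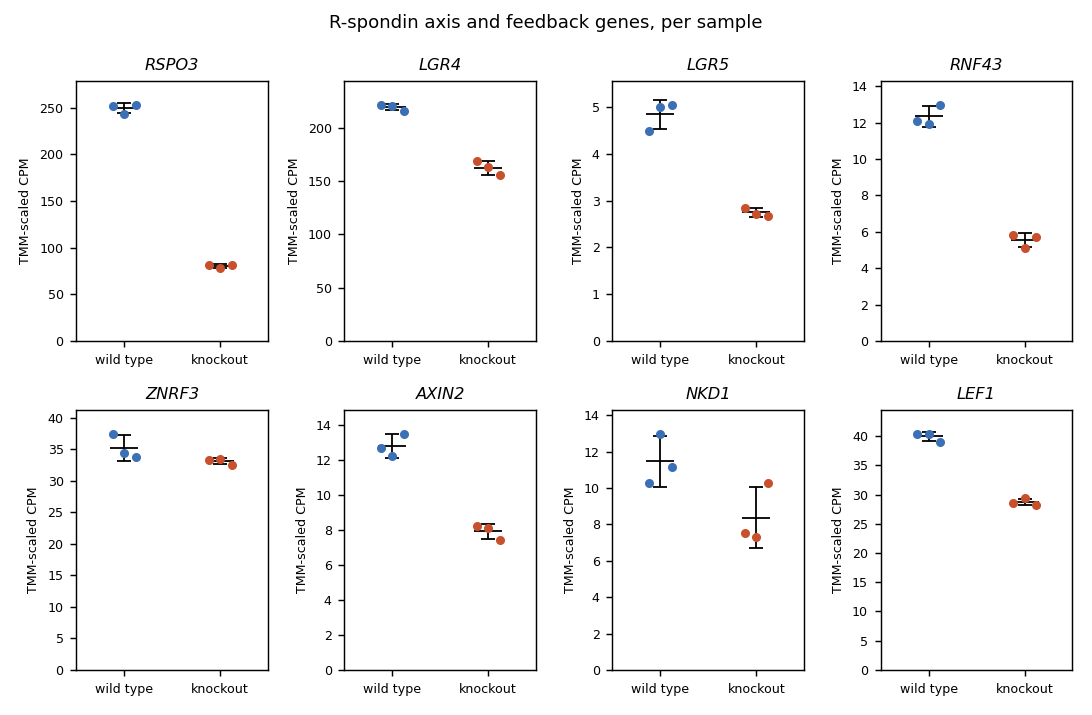
TMM-scaled CPM per sample of RSPO3, the R-spondin receptors LGR4 and LGR5, the ligases RNF43 and ZNRF3, and AXIN2, NKD1 and LEF1; points are samples, and the line and bar are mean and SD of 3. RSPO3, LGR4, LGR5, RNF43, AXIN2 and LEF1 show 2 separate groups. Those of ZNRF3 lie close together without overlap, at 33.7 to 37.5 CPM in wild type and 32.5 to 33.4 CPM in knockout, and those of NKD1 overlap.

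Frizzled receptor genes changed in both directions. Of 9 tested, 3 rose and 4 fell, which is 77.8% called beside 57.0% of all genes. FZD9 stood at 1.23, 0.895 and 1.27 CPM in wild-type cells and at 6.12, 5.03 and 6.39 CPM in knockout cells. It rose 5.14-fold (log2 fold change 2.36, SE 0.203, adjusted p = 8.30e-07), with a wide gap between the groups, and reached 2.51 ± 0.276 FPKM in knockout, still below 7 other Frizzled genes. FZD1, the most abundant Frizzled gene in both groups, went the other way, at 42.9, 40.6 and 38.3 FPKM in wild-type cells and 26.9, 27.9 and 26.8 FPKM in knockout cells. It fell by 0.61 (SE 0.0510, adjusted p = 6.12e-07), and its share of the summed Frizzled FPKM went from 36.8 to 37.9% in wild type to 27.4 to 28.0% in knockout.

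FZD3 (-0.70, SE 0.0719), FZD6 (-0.40, SE 0.0709) and FZD7 (-0.40, SE 0.102), each with knockout samples below all wild-type samples, also fell. FZD4 (0.60, SE 0.0601) and FZD8 (0.38, SE 0.0493) rose. By FPKM, FZD8 overlapped FZD6 and FZD2 in wild type and lay above every Frizzled gene but FZD1 in each knockout sample. FZD4 shares 1399 exonic bases on the opposite strand with PRSS23, which rose by 0.46 (SE 0.0481) from 439 ± 18.4 CPM to 603 ± 12.03 CPM, and whether the libraries kept strand is not stated. FZD2 (-0.17, adjusted p = 0.0783) and FZD5 (0.08, adjusted p = 0.593) did not pass, and FZD10 had at most 9 counts. FZD2 passed without wild-type replicate 3 and with no low-count filter. The 10 Frizzled genes summed to 109 ± 4.50 FPKM in wild-type cells and 97.9 ± 1.79 FPKM in knockout cells.

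The co-receptor genes LRP5 and LRP6, which act beside Frizzled in the beta-catenin branch, moved apart. LRP5 stood at 65.8, 69.9 and 63.9 CPM in wild-type cells and at 133, 129 and 131 CPM in knockout cells, a rise of 1.97-fold (log2 fold change 0.98, SE 0.0503, adjusted p = 6.28e-09). LRP6 stood at 55.6, 59.2 and 62.0 CPM in wild-type cells and at 49.5, 48.7 and 45.6 CPM in knockout cells and fell by 0.30 (SE 0.0590, adjusted p = 9.26e-04). By FPKM, LRP5 stood at 12.8 ± 0.545 in wild type and 26.0 ± 0.169 in knockout, and LRP6 at 5.89 to 6.38 in wild type and 4.71 to 5.17 in knockout. ROR1 and ROR2, receptors for WNT5A, did not pass. ROR1 averaged 139 ± 5.36 CPM in wild-type cells and 138 ± 15.8 CPM in knockout cells (adjusted p = 0.950), and ROR2 22.1 ± 1.04 CPM and 21.3 ± 0.511 CPM (-0.06, adjusted p = 0.506). ROR1 was the most abundant co-receptor gene in wild type, at 23.9, 25.7 and 24.1 FPKM, and stood at 27.2, 25.9 and 21.3 FPKM in knockout.

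Of 8 secreted antagonist genes tested, 3 rose and 3 fell, which is 75% called beside 57.0% of all genes. The most abundant were DKK3, a divergent Dickkopf, and SFRP1, which binds Wnt ligands through a Frizzled-like domain. DKK3 stood at 107, 108 and 108 FPKM in wild-type cells and at 94.0, 87.8 and 91.7 FPKM in knockout cells and fell by 0.33 (SE 0.0456, adjusted p = 5.99e-05). SFRP1 fell by 0.23 (SE 0.0473, adjusted p = 0.00137), from 336 ± 11.4 CPM to 287 ± 8.09 CPM. Together both held 84.6 to 86.3% of the summed antagonist FPKM in wild type and 73.5 to 75.3% in knockout.

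FRZB, a secreted Frizzled-related protein known from cartilage, stood at 23.1, 23.9 and 22.2 CPM in wild-type cells and at 67.0, 64.6 and 68.0 CPM in knockout cells. It rose 2.88-fold (log2 fold change 1.53, SE 0.0573, adjusted p = 3.60e-10), with groups far apart. SFRP5 stood at 0.425, 0.377 and 0.283 CPM in wild-type cells and at 2.43, 1.98 and 2.07 CPM in knockout cells, rising by 2.56 (SE 0.323, adjusted p = 2.58e-05) from 6 to 9 counts per wild-type sample. DKK1, which blocks LRP5 and LRP6, rose by 0.32 (SE 0.0774, adjusted p = 0.00348), from 38.3 ± 3.26 CPM to 47.9 ± 4.01 CPM. SFRP2 fell by 0.91 (SE 0.320, adjusted p = 0.0281), from 1.49 ± 0.277 CPM to 0.793 ± 0.147 CPM, but its call ended in DESeq2 (adjusted p = 0.1003), with the replicate number as a block (adjusted p = 0.0564) and without wild-type replicate 1 or 2 or knockout replicate 1 or 2. SFRP4 (0.46, adjusted p = 0.0794) and DKK2 (-0.47, adjusted p = 0.326) did not pass, although SFRP4 passed on log2(FPKM + 1) and without knockout replicate 1. The DKK2 estimate ranged from -0.74 to -0.15 with single samples left out. DKK4 and WIF1 were too low to test. The summed antagonist FPKM was 213 ± 0.455 in wild type and 209 ± 3.22 in knockout.

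**Figure D4:**
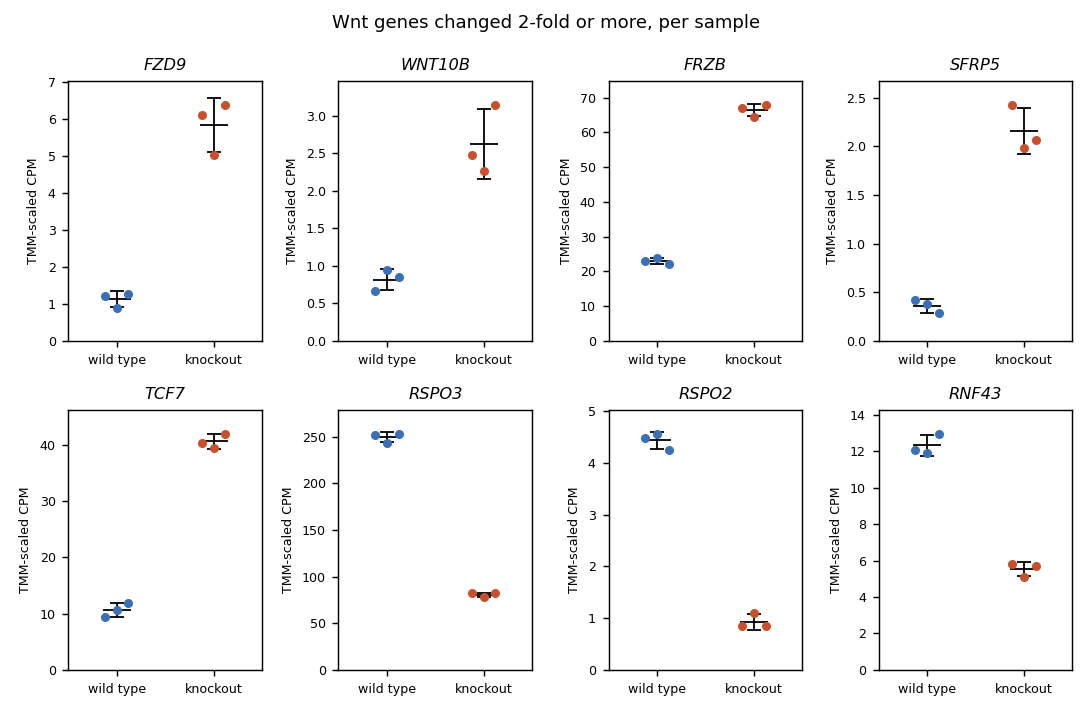
TMM-scaled CPM per sample of the 8 Wnt genes that passed with a change of 2-fold or more and whose higher group averaged 1 CPM or above; points are samples, and the line and bar are mean and SD of 3. Each gene shows 2 separate groups, with FZD9, WNT10B, FRZB, SFRP5 and TCF7 higher in knockout and RSPO3, RSPO2 and RNF43 lower.

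All 4 genes for TCF and LEF factors, the DNA-binding partners of beta-catenin, passed the test, beside 57.0% of all genes. TCF7 stood at 9.36, 10.6 and 11.9 CPM in wild-type cells and at 40.4, 39.5 and 42.1 CPM in knockout cells. It rose 3.83-fold (log2 fold change 1.94, SE 0.0846, adjusted p = 1.41e-09), and its share of the summed FPKM of the 4 genes went from 6.20 to 6.88% in wild type to 22.3 to 25.3% in knockout. TCF7 shares 210 exonic bases on the opposite strand with SKP1, at 223 ± 4.60 CPM in wild-type cells and 204 ± 11.2 CPM in knockout cells. LEF1, the most abundant of the 4 in wild type at 13.9, 13.6 and 13.8 FPKM, was the least abundant in knockout at 9.47, 9.85 and 9.65 FPKM. It fell by 0.48 (SE 0.0574, adjusted p = 1.71e-05). TCF7L1, usually a repressor, rose by 0.44 (SE 0.0702, adjusted p = 1.75e-04), a size that was 0.22 on log2(FPKM + 1). TCF7L2 rose by 0.40 (SE 0.105, adjusted p = 0.0133), at 60.5, 77.8 and 63.0 CPM in wild type and 81.9, 96.7 and 86.4 CPM in knockout, a call that ended without wild-type replicate 3 (adjusted p = 0.0510) or knockout replicate 3 (adjusted p = 0.0562).

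TCF and LEF factors bind a short motif in DNA, so its letters were searched in the RefSeq promoter windows (250 bases before to 50 after the start, GRCh38.p14). The letters were CTTTGAA or CTTTGAT and likewise CTTTGTA or CTTTGTT, on both strands. RefSeq windows matched 39 of the 57 genes, and 3 of them held the motif (7.69%, beside 13.8% of all 35116 windows): DKK1 and TCF7, which rose, and WNT3. In DKK1 it began 95 and 76 bases before the start, in TCF7 50 bases before it on the minus strand, and in WNT3 19 bases after it. The windows of DKK1 (chr10:52314031-52314330, plus strand) and TCF7 (chr5:134123368-134123667, plus strand) are shown for these matches. Those of FRZB (chr2:182866588-182866887, minus strand) and RSPO3 (chr6:127118421-127118720, plus strand) are shown as the abundant antagonist that rose most and the R-spondin that fell most in CPM. The start in the TCF7 window lies 15400 bases inside the annotated gene. Several other windows also start inside the gene, such as those of LEF1 (by 2631 bases), LRP5 (14179), RNF43 (14813) and TCF7L2 (179024). For 25 of the 39 windows, bases after the start were found in a GENCODE transcript of that gene. AXIN2, LGR5 and NKD1 had no window. The share with the motif thus covers these windows and not the main promoter of every gene. Capitals mark the motif, and FRZB and RSPO3 hold none in these windows. A match of letters is not a bound site.
DKK1: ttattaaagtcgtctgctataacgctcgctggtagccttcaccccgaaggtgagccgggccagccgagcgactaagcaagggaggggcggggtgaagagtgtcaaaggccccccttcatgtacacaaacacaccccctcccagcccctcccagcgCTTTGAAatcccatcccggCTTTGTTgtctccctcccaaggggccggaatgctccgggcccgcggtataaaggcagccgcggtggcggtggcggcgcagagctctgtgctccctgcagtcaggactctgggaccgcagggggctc
TCF7: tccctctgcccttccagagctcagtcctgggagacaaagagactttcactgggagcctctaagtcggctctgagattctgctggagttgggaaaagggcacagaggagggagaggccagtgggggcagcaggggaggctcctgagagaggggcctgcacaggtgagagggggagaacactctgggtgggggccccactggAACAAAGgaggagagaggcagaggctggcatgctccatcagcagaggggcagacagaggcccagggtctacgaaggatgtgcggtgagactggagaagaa
FRZB: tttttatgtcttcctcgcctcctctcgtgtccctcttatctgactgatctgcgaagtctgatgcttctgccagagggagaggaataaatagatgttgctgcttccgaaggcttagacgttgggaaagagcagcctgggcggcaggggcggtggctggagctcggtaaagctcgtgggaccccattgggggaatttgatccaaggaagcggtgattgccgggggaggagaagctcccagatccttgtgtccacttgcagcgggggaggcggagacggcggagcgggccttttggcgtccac
RSPO3: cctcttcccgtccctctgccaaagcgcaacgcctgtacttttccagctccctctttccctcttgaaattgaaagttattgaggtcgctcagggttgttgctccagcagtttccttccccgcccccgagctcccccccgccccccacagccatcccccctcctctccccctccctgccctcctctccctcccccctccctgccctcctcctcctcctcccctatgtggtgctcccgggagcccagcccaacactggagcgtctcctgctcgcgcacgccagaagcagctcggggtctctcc

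The ratio of count to FPKM gives the transcript length that the authors' values imply, a readout apart from level. Of 31 Wnt genes with at least 50 counts in every sample, 2 shifted (limma with Benjamini-Hochberg adjustment over 13629 genes), beside 5.35% of all genes, and 0 shifted by 25% or more, beside 1.69%. WNT11 went from 2459 ± 27.9 bases to 2289.7 ± 4.37 bases (adjusted p = 0.0185), and WNT2B from 6837 ± 170.1 bases to 5978 ± 99.1 bases (adjusted p = 0.0267). WNT2B shares 2661 exonic bases with ST7L on the opposite strand, and with any single sample left out at most 1 Wnt gene was called. TCF7 stood at 4345 ± 501 bases in wild type and 3617 ± 101 bases in knockout, which did not pass (adjusted p = 0.176).

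Of 129 further genes of the pathway, listed by role, 120 were tested, 40 rose and 41 fell, which is 67.5% called beside 57.0% of all genes. The ligand secretion genes PORCN, which adds the lipid, and WLS, which carries Wnt to the surface, did not pass (-0.12, adjusted p = 0.180, and 0.013, adjusted p = 0.831). Among 17 other receptor and surface genes tested 7 rose and 5 fell (41.2% and 29.4%, beside 28.4% and 28.6% of all genes). The glypican genes GPC4 (1.28, SE 0.0585) and GPC3 (1.21, SE 0.0677) were among the risers, and the LRP6 partner gene LYPD6 (-1.09, SE 0.0801) and GPC6 (-0.53, SE 0.0455) among the fallers. Of 13 other extracellular regulator genes tested, not all of them inhibitors, 6 rose and 2 fell (46.2% and 15.4%). The risers included TPBG (1.12, SE 0.0570) and APCDD1L (2.15, SE 0.0830), and the fallers were APCDD1 (-1.45, SE 0.146) and CER1 (-1.66, SE 0.442).

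Inside the cell, 8 of 27 destruction complex and relay genes rose and 8 fell (29.6% each, near the 28.4% and 28.6% of all genes). The risers included AXIN1 (0.52, SE 0.0547) and DACT1 (0.45, SE 0.0531), and the fallers DACT3 (-0.62, SE 0.0647) and CXXC4 (-1.06, SE 0.113). CTNNB1, which encodes beta-catenin, averaged 402 ± 7.15 CPM in wild-type cells and 358 ± 13.0 CPM in knockout cells and fell by 0.17 (SE 0.0466, adjusted p = 0.00881). Of the 17 genes of beta-catenin and its nuclear partners 3 rose and 7 fell (17.6% and 41.2%). SOX17 (3.15, SE 0.0863), which can bind beta-catenin and is also an endothelial and endoderm marker, and the co-repressor gene TLE3 (0.86, SE 0.0493) rose, while TLE4 (-0.79, SE 0.0699) and BCL9 (-0.54, SE 0.0540) fell. In the planar polarity and calcium branch 7 of 22 rose and 8 fell (31.8% and 36.4%, beside 28.4% and 28.6% of all genes). The risers included PRICKLE2 (0.56, SE 0.0705) and RAC1 (0.25, SE 0.0437). The fallers included DAAM1 (-1.07, SE 0.0502), a formin that binds Dishevelled, and PRICKLE1 (-0.85, SE 0.0444).

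Reported target genes of beta-catenin outside the 57 Wnt genes did not move as a block. AXIN2 and RNF43, named above as a readout and a target of beta-catenin, are therefore not counted here, and both fell. The other feedback and nuclear factor genes among the 57 are not counted either. Of those, NKD1 and LEF1 fell, while TCF7, TCF7L1 and TCF7L2 rose. Of the 25 target genes outside the 57 that were tested, 9 rose and 12 fell, with a median of 0.24. That is 84% called beside 57.0% of all genes, with 36% higher beside 28.4% and 48% lower beside 28.6%. CCND1, the cyclin D1 gene, averaged 111 ± 4.14 CPM in wild-type cells and 484 ± 39.3 CPM in knockout cells (2.12, SE 0.0632), and TWIST1 rose by 2.08 (SE 0.0712). TNFRSF19 (-1.30, SE 0.0476) and FGF18 (-1.68, SE 0.0670) fell. The early mesoderm genes TBXT and SP5, which respond directly to beta-catenin, were too low to test, SP5 at 0.189 ± 0.0472 CPM in wild-type cells and 0.156 ± 0.0981 CPM in knockout cells. TWIST1 is also on the list of fibroblast and mesenchymal markers, of which 14 of 17 rose in the same samples.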

How the data were processed

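The authors deposited 1 table of 28092 genes with 2 values for each of the 6 samples. The first were made by the authors from reads, per the file headers, and were taken as estimated counts because 10.9 to 12.0% of values above 0 were exactly whole, the rest having decimals. The deposited expression values carry no unit in the header and were read as FPKM, since count, sample total and value implied a length that varied by under 2% (coefficient of variation) for 44.0% of 9992 well-covered genes. The submitters' processing notes name the build hg38 without a role. No aligner, counter, annotation or strandedness was stated in the labels or headers. The 2 deposited columns of group means were not used.

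Counts were rounded and tested for genotype with edgeR 4.0.16 in R 4.3.3: filterByExpr (minimum count 10, minimum total 15), TMM, robust quasi-likelihood fit, Benjamini-Hochberg adjustment over all genes tested, threshold 0.05. SE was derived from the F statistic. Implied lengths were tested with limma 3.58.1. Both tests were checked on simulated data. The common biological coefficient of variation was 0.0791. At this depth 3 counts stand for 0.138 to 0.142 CPM, and this limit covers counting error only. Replicates of a group were distinct beyond counting noise (chi-square divided by its degrees of freedom, 3.37 to 6.81). All 57 genes matched RefSeq by Entrez ID, and coordinates are those of RefSeq on GRCh38.p14. Of the 57, 15 share exonic bases with another gene in GENCODE 29, 13 on the opposite strand, so their calls are uncertain. They are AXIN2, DKK1, FZD4, FZD6, FZD8, LEF1, LGR5, NKD1, RNF43, TCF7, TCF7L2, WNT2, WNT2B, WNT4 and WNT11.

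The genes, the role lists and the marker lists were chosen with earlier results of these data known. Every Wnt gene is accounted for. Values in each sample are given for those changed 2-fold or more with a mean of at least 1 CPM, for the most abundant of a role and for some others. In each list of further pathway genes the 2 risers and 2 fallers of smallest p are named, with CTNNB1, PORCN, WLS, TBXT, SP5 and CCND1. The alternatives changed scaling (RLE, upper quartile, total count), filter and tool: no low-count filter, a mean of at least 1 CPM, DESeq2 1.42.0, limma-voom, limma on log2(FPKM + 1) and log2(FPKM + 0.1) for genes of at least 1 FPKM in 3 samples, named genes only, unrounded counts, the replicate number as a block, and each sample left out.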

Additional observations from a re-analysis of the deposited data

How the results depend on the processing

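Of 48 Wnt genes tested, 26 of the 31 calls held under all 18 alternatives that tested them, 5 calls (NKD1, SFRP2, TCF7L2, WNT9A and WNT9B) ended under at least 1, and 7 other genes (FZD2, SFRP4, WNT2, WNT3, WNT5B, WNT6 and WNT7B) passed under at least 1. No called gene changed direction. Without each sample in turn, rises numbered 11 to 14 and falls 15 to 20. Under the other alternatives, rises numbered 12 to 14 and falls 15 to 20, so counts stayed within 1.5 times the reported ones. Calls over all genes ranged from 10062 to 10597 without each sample and were 8182 on log2(FPKM + 0.1), the lowest. On log2(FPKM + 1), which shrinks low genes, SFRP5 stood at 0.86, RSPO2 at -0.89, WNT10B at 0.73, FZD9 at 1.246 and RNF43 at -0.61, and CXXC4 at -0.63. TCF7L1, which is not a low gene at 9.94 ± 0.371 FPKM in wild type, stood at 0.22 there and at 0.23 on log2(FPKM + 0.1). Its implied length was 3320 ± 66.3 bases in wild type and 3884 ± 249 bases in knockout, which did not pass (limma adjusted p = 0.0831).

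The sign of genes that did not pass was not fixed. ROR1 stood at 0.027 with upper-quartile factors, 0.017 with total counts, 0.0099 at a mean of at least 1 CPM, 0.0029 for named genes only, 0.0056 on log2(FPKM + 1) and 0.0055 on log2(FPKM + 0.1). WNT4 stood at 0.017 with upper-quartile factors and 0.0047 with total counts, and WLS at -0.016 with no low-count filter. Without each sample in turn ROR1 ranged from -0.080 to 0.080, WNT4 from -0.53 to 0.56, WNT7A from -0.097 to 0.26, WNT2B from -0.38 to 0.044, FZD5 from -0.063 to 0.20 and WLS from -0.0090 to 0.041.

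The count of implied-length shifts, 2 in the report, was 4 at a minimum of 20 counts, 0 with the replicate block and 0 to 1 without each sample, and the cause was not tested. Replicate numbers did not pair the samples: deviations of same-numbered samples correlated at 0.023, -0.0081 and -0.013. With the number as a block, 14 Wnt genes rose and 17 fell.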

Other observations

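WNT8B had 98.1 estimated counts (6.36 FPKM) in wild-type replicate 2, 1 count in knockout replicate 3 and 0 in the other 4 samples, and it was not tested. In that sample only WNT11, WNT5B and WNT5A were higher among the WNT genes by FPKM, and WNT2B was listed with the same count of 98.1, at 0.67 FPKM.

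FZD5 differed in implied length between samples of the same group, from 9824 to 13910 bases in wild type and from 6360.3 to 10461 bases in knockout. It averaged 1.34 ± 0.372 FPKM in wild type and 2.28 ± 0.972 FPKM in knockout.

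The largest exonic overlap of RNF43 in GENCODE 29 is 4326 bases, with the protein-coding model AC004687.2 on the same strand, for which no value is given here. RNF43 also shares 1521 exonic bases on the opposite strand with TSPOAP1-AS1, which fell by 1.23 on the log2 scale (SE 0.412, edgeR adjusted p = 0.0239) at 2.12 ± 1.21 CPM in wild-type cells and 0.902 ± 0.271 CPM in knockout cells. A further 143 bases are shared on the same strand with SUPT4H1, which rose by 0.25 (SE 0.0664).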
